A study of Mus musculus with 20 samples.

Results

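Chromatin accessibility in Idh2 R172K blood progenitors was compared with that in WT controls over every peak of the deposited table. The 2 genotypes are 4 libraries each, 8 of the 20 libraries in the series, and were taken by the genotype and replicate number in the column names. All cells were Lin-cKit+Sca1+ (LSK) cells of C57Bl/6J bone marrow, the sorted compartment that holds stem cells and multipotent progenitors of mouse blood. Each library pooled 2 mice aged 3 to 4 months. Control mice were +/+;Vav-Cre, and mutant mice were Idh2LSL-R172K/+;Vav-Cre, so both groups carried Vav-Cre, a recombinase driven by Vav regulatory DNA in blood cells. The mutant allele is heterozygous and is switched on where Cre removes a stop cassette. One further group, Idh2LSL-R140Q/+;Vav-Cre (4 libraries), is used below where its own values or a direct test against it are given.

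IDH2 is the mitochondrial isocitrate dehydrogenase that makes 2-oxoglutarate. The R172K change alters the active site so that the enzyme turns 2-oxoglutarate into 2-hydroxyglutarate, which can inhibit 2-oxoglutarate-dependent dioxygenases such as the TET 5-methylcytosine oxidases and many histone demethylases. ATAC-seq inserts adapters with a transposase into open DNA, so the count at a peak reads how accessible that stretch was.

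Counts in peaks ran from 10.5 to 27.81 M (M for 1e6) per Idh2 R172K library and from 14.51 to 26 M per WT library. Idh2 R172K replicate 2 was the shallowest, and 0.539% of peaks had no count in it, against 0.022% to 0.032% in WT. Levels are counts per 1e6 (CPM) with TMM-scaled library sizes. Markers fixed for the LSK label were open: the strongest Kit peak held 64.8 ± 2.73 CPM in WT and 73.3 ± 8.17 in Idh2 R172K, and the strongest at Ly6a, which encodes Sca1, held 3.14 ± 0.15 and 3.52 ± 0.859 (SD, n = 4 each). Among markers of other cells, Hba-a1, Ppbp, Fcer1a, Cd79a, Cd3g and Cd8a had no peak. Summed over all their peaks, B cell markers ranged from 143 to 153 CPM in WT and from 113 to 118 in Idh2 R172K, and megakaryocyte markers from 188 to 200 and from 225 to 261. Granulocyte and monocyte markers summed to 226 to 265 and 228 to 261 CPM, and erythroid markers to 159 to 168 and 176 to 180. By the peak test given below, 12 of the 32 erythroid marker peaks were nonetheless lowered and 4 raised. In bulk chromatin a smaller share of cells of one type and a lower signal per cell cannot be told apart, and the part of these markers in the results below was not tested.

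Of 123908 peaks tested with the edgeR quasi-likelihood test (Benjamini-Hochberg adjusted p below 0.05), 65673 were called, 53.0% of the tested set. Raised peaks numbered 31075 (25.1%) and lowered peaks 34598 (27.9%). The 4 libraries of one genotype lay wholly above the 4 of the other at 23447 of the raised and 27878 of the lowered peaks. Call and separation rest on the same counts, so this is a description. The share separated among all tested peaks was not counted. Cyclic loess, which removes any trend of the fold change with level, gave 32279 raised (26.1%) and 31350 lowered peaks (25.3%). Both scalings placed 55839 peaks in the same direction and 8 in opposite ones. Under all 5 scalings tried (TMM, cyclic loess, library size, RLE and quantile) 20883 peaks were raised (16.9%) and 25680 lowered (20.7%), which left 19110 TMM calls that at least one other scaling did not share.

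Levels and calls moved with the scaling in different ways. Under TMM the median log2 fold change rose from -0.21 in the decile of peaks with the lowest mean level to 0.16 in the highest decile. Under cyclic loess the same deciles stood at 0.05 and 0.01. In the highest decile 52.4% of peaks were raised and 6.55% lowered under TMM, against 21.2% and 19.0% under cyclic loess, and 17.0% and 6.09% held under all 5 scalings.

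**Figure D1:**
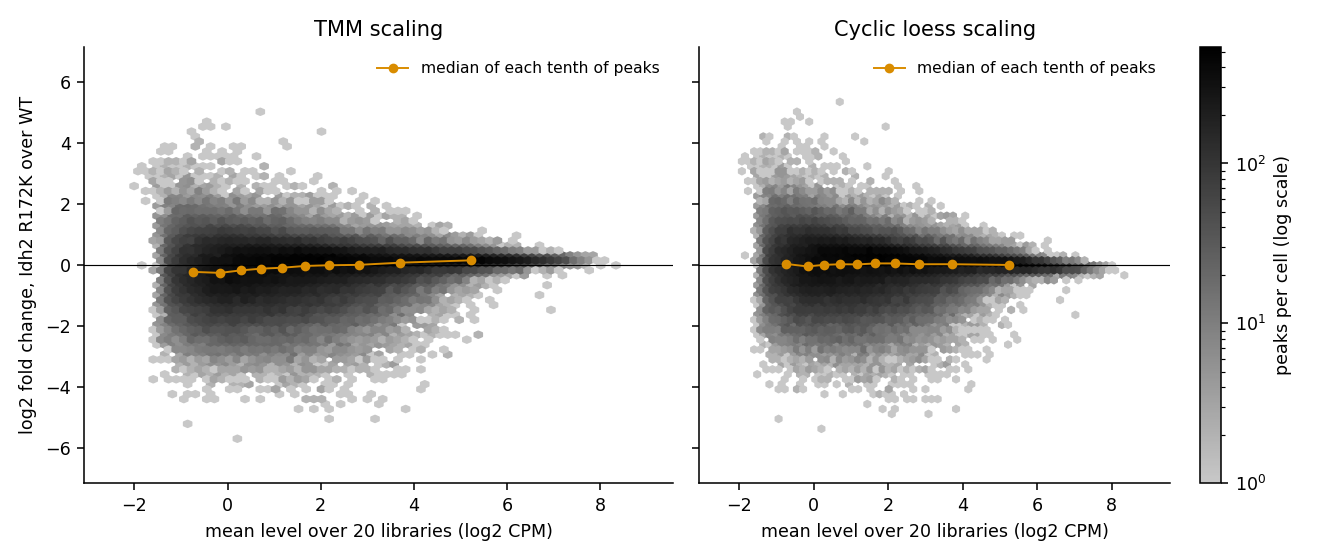
Log2 fold change of Idh2 R172K over WT (y axis) against mean log2 CPM over the 20 libraries (x axis) for the 123908 tested peaks, under TMM (left) and cyclic loess (right); shading gives the number of peaks per cell and orange points the median of each decile of peaks by level. The TMM medians climb from -0.21 to 0.16, the loess medians stay near 0, and under both scalings the cloud reaches further down than up at middle and high levels.

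Gains were smaller than losses. The median log2 fold change of a called peak was 0.50 for raised and -0.96 for lowered peaks. At 2-fold or more 4504 peaks were raised and 16403 lowered, at 4-fold or more 471 and 3303, and at 8-fold or more 77 and 466. Cyclic loess narrowed this imbalance without turning it, with 6558 raised and 13369 lowered at 2-fold and 124 and 346 at 8-fold. Quantile scaling gave the smallest imbalance, 7332 against 10802 at 2-fold and 128 against 173 at 8-fold. A test against a change of 1.5-fold (glmTreat in edgeR) called 4863 raised peaks (3.92%) and 15653 lowered ones (12.6%).

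Among called peaks, small and large changes were found at different kinds of peaks. A small change passes the threshold more readily at high counts, so the level and width of the smallest band depend in part on what can be called. Of the 7870 peaks raised by less than 1.25-fold, 47.5% were in the promoter class of the deposited annotation. Only 61.8% of promoter-class peaks lie within 1 kb of a RefSeq start. The median WT level of the raised peaks under 1.25-fold was 25.8 CPM over a median width of 950 bp. Peaks raised 2- to 3-fold were narrower and weaker, with a median width of 412 bp, a median of 0.868 CPM in WT and 4.28% in the promoter class. The 67 peaks raised 8- to 16-fold lay at a median of 132000 bp from the nearest RefSeq start site, and the 10 raised over 16-fold at 244000 bp. Lowered peaks showed no such shift outward: the median distance was 21900 bp at 2- to 3-fold, 25500 bp at 8- to 16-fold and 18700 bp over 16-fold. Among peaks changed 8-fold or more, 61.0% of the raised ones lay over 100 kb from a start site and 12.4% of the lowered ones, beside 10.3% of all tested peaks.

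**Figure D2:**
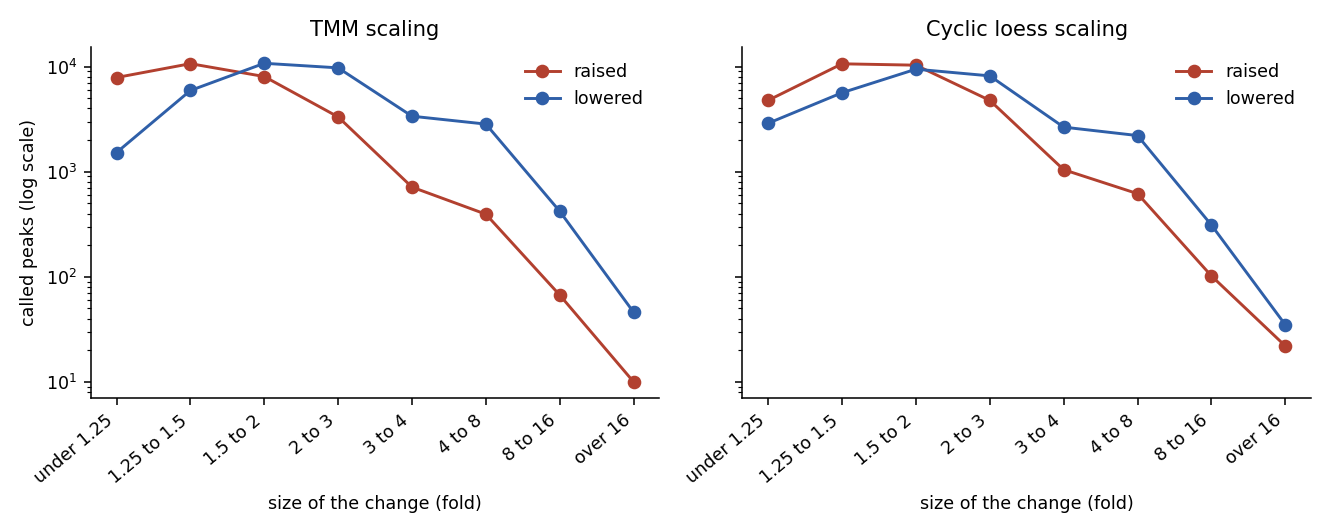
Number of called peaks (y axis, log scale) by size of the change in fold bands (x axis) for raised (red) and lowered (blue) peaks under TMM (left) and cyclic loess (right). Below 1.5-fold raised peaks outnumber lowered ones and from 2-fold up lowered peaks outnumber raised ones under both scalings, as in the 2- to 3-fold band with 3320 raised and 9728 lowered peaks by TMM.

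Named peaks were chosen so that the 4 Idh2 R172K libraries do not overlap the 4 WT libraries, so that separation is a description; the few chosen by another rule are introduced as such. Peaks at Mmp15, Rab3ip and Dhx15 are given first, as reference points on the lowered side. At Mmp15, a membrane-type matrix metalloproteinase, the intronic peak chr8:95369425-95370383 held 0.731, 0.877, 0.591 and 0.676 CPM in Idh2 R172K and 16.4, 19.8, 16.9 and 19.2 in WT (log2 fold change -4.70). The Rab3ip peak fell by 3.79 and the Dhx15 peak by 3.40 on the log2 scale. Beyond these, the leading loss of 8-fold and more was found near Atp10a, a phospholipid flippase gene. Its peak chr7:58836741-58837718 held 1.58, 2.24, 1.74 and 2.25 CPM in Idh2 R172K and 27.1, 26.4, 26.2 and 25.8 in WT (log2 fold change -3.81 ± 0.119 SE, edgeR adjusted p = 1.26e-25). The Lmln peak chr16:33123270-33124218 held 1.65, 1.27, 1.77 and 1.86 CPM against 15.1, 16.5, 14.1 and 15.1 (log2 fold change -3.17).

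Losses of 4- to 8-fold were led by peaks at Fnbp1, which encodes a membrane-curving F-BAR protein, Msl3l2 and Plk2, a polo-like kinase gene. The Fnbp1 intron peak chr2:31082607-31083215 held 4.23, 3.99, 4.51 and 3.83 CPM in Idh2 R172K and 33.7, 32.1, 31.1 and 29.5 in WT. The log2 fold changes were -2.91 at Fnbp1, -2.94 at Msl3l2 and -2.82 at Plk2. Between 2- and 4-fold stood Enpp1, an ectonucleotide pyrophosphatase gene, with 8.89, 8.28, 8.35 and 6.87 CPM against 31.4, 28.2, 30.6 and 28.0. With it stood Pepd, the prolidase gene (log2 fold change -1.90), and Xdh, the xanthine dehydrogenase gene (-1.67).

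The losses named below 2-fold stood at stronger peaks, but named peaks were those of lowest p in each fold band. Over all lowered peaks the median WT level was 12.8 CPM under 1.25-fold, 2.27 at 1.5- to 2-fold and 2.58 at 8- to 16-fold. The peak inside Nsd1, a histone H3 lysine 36 methyltransferase gene, was the strongest of those named. At chr13:55210341-55212911 it held 62.4, 52.0, 58.0 and 52.0 CPM in Idh2 R172K and 109, 115, 104 and 108 in WT (log2 fold change -0.95 ± 0.0625 SE, edgeR adjusted p = 2.35e-16). The Ap5b1 peak fell by 0.86 on the log2 scale. Losses under 1.5-fold by TMM were led by Notch1, the receptor gene of T cell fate, where the peak 9734 bp from the gene held 33.1, 33.8, 33.3 and 29.6 CPM against 50.9, 46.7, 47.5 and 45.1. Gstt2 (-0.54) and Olfr1358 (-0.58) were of the same size.

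On the raised side, gains of 8-fold and more were led by peaks at Cst10, Otud7a and Sgcd. The peak inside Sgcd, which encodes delta-sarcoglycan of muscle, at chr11:47777135-47777848 held 9.04, 6.62, 8.50 and 12.6 CPM in Idh2 R172K and 0.531, 0.859, 0.591 and 0.574 in WT (log2 fold change 3.85 ± 0.202 SE, edgeR adjusted p = 7.78e-19). The peak 121757 bp from Cst10 held 6.69, 8.57, 8.69 and 11.3 against 0.872, 0.859, 1.12 and 1.19 CPM (log2 fold change 3.13).

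Gains of 4- to 8-fold included 2 regulators of small GTPases. Inside Arhgap45, a GTPase-activating protein gene of blood cells, the peak chr10:80030219-80030719 held 18.7, 17.5, 15.9 and 16.1 CPM in Idh2 R172K and 2.69, 3.15, 2.96 and 3.12 in WT (log2 fold change 2.52). Inside Arap1, also a GTPase-activating protein gene, the peak chr7:101389064-101389888 held 19.8, 19.7, 18.7 and 20.8 CPM against 5.23, 5.12, 4.93 and 3.65 (2.06). Arap1 carried an opposite change elsewhere in the same gene. Its peak chr7:101352372-101352922 held 2.81, 3.31, 2.77 and 2.37 CPM in Idh2 R172K and 13.5, 12, 13.5 and 13.0 in WT (log2 fold change -2.23). The Cck peak, 29375 bp from the cholecystokinin gene, was raised by 2.14.

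Between 2- and 4-fold the leading gains were near Ap3b1, an adaptor subunit for lysosome-related organelles, Tmem17 and Ss18, a subunit gene of the BAF remodeller. The Ap3b1 peak held 27.0, 28.9, 29.0 and 32.9 CPM in Idh2 R172K and 9.14, 9.25, 8.80 and 9.35 in WT (log2 fold change 1.68). Tmem17 had the same log2 fold change of 1.68, and the Ss18 peak, 250817 bp away, had 1.95. Below 2-fold, the peak 30073 bp from P2ry2, a purinergic receptor gene, held 41.1, 41.0, 42.1 and 43.2 against 21.2, 20.1, 21.6 and 23.9 CPM. The Tha1 peak gained 0.98. Gains under 1.5-fold were led by 3 promoter-class peaks: Ddah2 with 45.4, 43.3, 43.7 and 44.9 CPM against 30.8, 30.3, 29.2 and 29.0, Khnyn (0.58) and Niban2 (0.58).

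Peaks that were nearly closed in one genotype were mostly losses. With a mean under 1 CPM in one group and of 5 CPM or more in the other, 125 peaks were closed in Idh2 R172K, 9 of them in the promoter class, and 14 were opened, none of them in that class. Among the closed ones, the Atf7ip peak chr6:136531825-136533048 held 0.346, 0.877, 0.370 and 0.676 CPM in Idh2 R172K and 11, 11.7, 9.86 and 11.1 in WT (log2 fold change -4.45). Atf7ip encodes a cofactor of the histone methyltransferase SETDB1. A peak 94473 bp from Ntrk2, the receptor gene for brain-derived neurotrophic factor, fell by 4.96 on the log2 scale and the Ppm1h peak by 3.43.

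Opened peaks included those at Sgcd, given above, and Otud7a. The peak 550675 bp from Hdgfl1 held 6.39, 5.94, 5.51 and 8.33 CPM in Idh2 R172K and 0.228, 0.0409, 0.394 and 0.164 in WT (log2 fold change 5.07), the strongest TMM gain of the comparison. The peak 473180 bp from Nuf2, a kinetochore gene, held 8.77, 8.18, 9.80 and 10.4 against 0.228, 0.737, 0.591 and 0.697 CPM (4.06). The peak 12223 bp from Klra8, a Ly49 receptor gene of natural killer cells, gained 2.99.

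A direct contrast of Idh2 R172K with Idh2 R140Q called 58244 peaks (47.0%). It shares the 4 Idh2 R172K libraries with the comparison against WT, so no overlap of the calls is given. Levels in Idh2 R140Q were 10.6 CPM at the Ntrk2 peak, 8.63 at Atf7ip, 0.386 at Hdgfl1 and 0.454 at Nuf2. The log2 differences of Idh2 R172K from Idh2 R140Q there were -4.54, -4.10, 4.02 and 4.37. Otud7a, which encodes a deubiquitinase, went the other way among the named peaks. Its peak chr7:63802730-63803300 held 6.81, 7.11, 6.06 and 9.52 CPM in Idh2 R172K and 0.379, 0.368, 0.526 and 0.205 in WT, while Idh2 R140Q stood at 11.5, higher than Idh2 R172K (log2 difference of Idh2 R172K from Idh2 R140Q -0.65, edgeR adjusted p = 2.36e-05).

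Location of the peaks separated gains from losses only in part. Under TMM 39.8% of the 15572 promoter-class peaks were raised and 15.0% lowered. Under cyclic loess these shares were 23.7% and 18.8%, beside 26.1% and 25.3% of all peaks, and the number of raised promoter-class peaks went from 6203 to 3683. Large losses were less frequent in this class: by TMM 5.64% of its peaks were lowered 2-fold or more, against 15.0% of intronic and 14.4% of intergenic peaks. Peaks over 100 kb from a RefSeq start site were the only distance band in which raised peaks outnumbered lowered ones under both scalings, apart from those within 1 kb. There 8.47% of peaks were raised 2-fold or more, against 3.63% of all tested peaks, and 28.0% were raised and 27.0% lowered by TMM (31.8% and 23.3% by cyclic loess).

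The X chromosome stood apart from the autosomes on the lowered side. Of its 2778 tested peaks 27.1% were raised and 16.5% lowered by TMM, and 31.1% and 13.0% by cyclic loess. On single autosomes the share lowered by TMM ran from 23.7% on chromosome 11 to 31.8% on chromosome 18. High and low signal at the Xist peaks, which mark an inactive X chromosome, was split alike in both groups, with replicates 2 and 4 high in each.

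Per library, the share of counts that fell in promoter-class peaks was 43.5%, 43.3%, 43.6% and 44.4% in Idh2 R172K and 41.1%, 41.8%, 40.6% and 41.8% in WT. The groups did not overlap, and the means of 43.7 ± 0.473% and 41.3 ± 0.598% (SD, n = 4 each) differed by 2.36 percentage points (exact permutation test, 2-sided, p = 0.0286, the smallest that 4 against 4 allows, and 0.0286 after adjustment over 4 shares). The decile of peaks with the highest mean level took 59.8 ± 0.626% and 56.5 ± 0.795%. Peaks over 50 kb from a start site took 12.6 ± 0.0346% and 12.9 ± 0.209%.

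**Figure D3:**
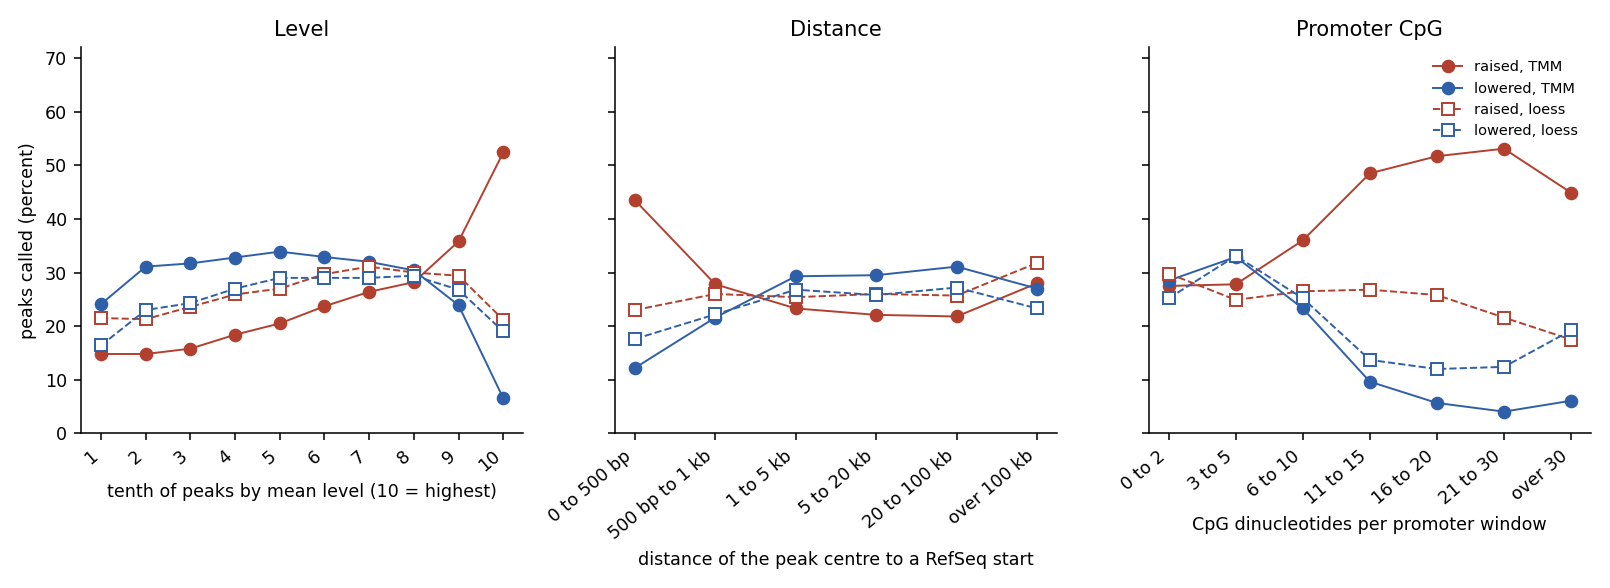
Percent of tested peaks called raised (red) or lowered (blue) under TMM (filled circles) and cyclic loess (open squares), by decile of mean level (left), by distance to a RefSeq start site (middle) and by number of CpG in the promoter window (right). The TMM excess of raised peaks at the highest level, next to start sites and at promoters with 21 to 30 CpG (52.4%, 43.5% and 53.1% raised) is much smaller under cyclic loess (21.2%, 23% and 21.6%), whereas the excess of lowered peaks at promoters with 3 to 5 CpG is seen under both.

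Promoters that lost accessibility were poor in CpG, the dinucleotide at which DNA is methylated and which clusters in CpG islands at many housekeeping promoters. A RefSeq window of 300 bases, from 250 before to 50 after the start site, matched 12275 tested peaks, with a median of 20 CpG per window. Promoters lowered under all 5 scalings (1107) had a median of 8, those lowered 2-fold or more (412) had 6, and those raised under all 5 scalings (2166) had 18. The 52 promoters raised 2-fold or more also had few, with a median of 7. The share lowered 2-fold or more was 9.64% at 0 to 2 CpG, 14.4% at 3 to 5, 9.45% at 6 to 10 and 0.425% over 30. At 0 to 2 CpG (477 promoters) 27.5% were raised and 28.5% lowered by TMM, and 29.8% and 25.2% by cyclic loess.

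CpG-poor promoters were also weaker, with a median WT level of 7.38 CPM at 3 to 5 CpG and 38.8 over 30 CpG, so they were compared within tertiles of mean level. The tertiles matched the level only in part. With 10 or fewer against over 10 CpG, the median WT level was 5.04 against 7.14 CPM in the lowest tertile. It was 21.7 against 25.2 CPM in the middle tertile and 49.0 against 58.2 in the highest. In the tertile of promoter peaks with the lowest mean level, 15.7% of those with 10 or fewer CpG were lowered 2-fold or more and 3.88% of those with over 10. Lowered calls under all 5 scalings stood at 29.0% and 14.8% there. In the middle tertile they stood at 11.9% and 2.99%, and in the highest tertile at 3.38% and 0.746%.

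Sequence words searched on both strands of the same windows were counted as a description only, and words can overlap. The GC box GGGCGG was found in 62.3% of all windows and in 27.9% of those lowered 2-fold or more. The AP-1 word TGANTCA was found in 5.35% and 12.6%, and the TATA word TATAAA in 6.91% and 12.1%. The 52 windows raised 2-fold or more held these words in 26.9%, 9.62% and 13.5%, so the shares moved the same way in large gains and large losses. The ETS word CCGGAAG, which holds a CpG, was found in 15.1% of all windows. It was found in 8.86% of those raised and in 7.32% of those lowered under all 5 scalings.

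Promoter windows of 5 named peaks are printed to show this range of CpG content beside the change in accessibility. They are RefSeq sequences of GRCm38.p6, 5′ to 3′ on the strand of the gene, with each CpG in capitals. Fcer1g (chr1:171234300-171234599, minus strand), which encodes the gamma chain of the IgE receptor, was lowered and has 7 CpG. Itga2b (chr11:102469834-102470133, minus strand), the platelet integrin CD41, and Csf3r (chr4:126024409-126024708, plus strand), the G-CSF receptor, were raised and have 6 and 9. Socs3 (chr11:117969317-117969616, minus strand), a feedback inhibitor of cytokine signalling, was raised and has 31. Srsf2 (chr11:116853045-116853344, minus strand), a splicing factor, has 39 and changed direction with the scaling.
Fcer1g: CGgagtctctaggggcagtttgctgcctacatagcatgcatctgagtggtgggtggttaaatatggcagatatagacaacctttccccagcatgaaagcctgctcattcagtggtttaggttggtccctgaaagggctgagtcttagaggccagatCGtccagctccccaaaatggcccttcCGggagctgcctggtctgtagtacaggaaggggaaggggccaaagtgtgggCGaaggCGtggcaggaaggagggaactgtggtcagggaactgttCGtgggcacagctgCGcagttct
Itga2b: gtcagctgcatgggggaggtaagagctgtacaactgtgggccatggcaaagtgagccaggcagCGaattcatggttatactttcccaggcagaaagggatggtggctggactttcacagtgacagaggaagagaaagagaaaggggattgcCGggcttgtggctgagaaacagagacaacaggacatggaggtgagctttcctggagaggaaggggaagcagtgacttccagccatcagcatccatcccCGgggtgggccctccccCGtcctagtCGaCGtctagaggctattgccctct
Csf3r: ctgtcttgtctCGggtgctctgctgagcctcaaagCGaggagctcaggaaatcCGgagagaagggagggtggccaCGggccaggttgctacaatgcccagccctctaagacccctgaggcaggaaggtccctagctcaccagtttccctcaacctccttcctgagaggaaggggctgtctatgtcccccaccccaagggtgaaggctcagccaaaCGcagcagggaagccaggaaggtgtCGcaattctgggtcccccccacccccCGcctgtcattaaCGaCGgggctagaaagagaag
Socs3: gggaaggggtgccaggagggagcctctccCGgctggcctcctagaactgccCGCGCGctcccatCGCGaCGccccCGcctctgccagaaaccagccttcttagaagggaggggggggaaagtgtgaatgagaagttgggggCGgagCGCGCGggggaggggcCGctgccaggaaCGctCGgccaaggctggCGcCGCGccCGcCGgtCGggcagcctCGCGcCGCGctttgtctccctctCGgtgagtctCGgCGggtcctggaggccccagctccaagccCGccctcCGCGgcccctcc
Srsf2: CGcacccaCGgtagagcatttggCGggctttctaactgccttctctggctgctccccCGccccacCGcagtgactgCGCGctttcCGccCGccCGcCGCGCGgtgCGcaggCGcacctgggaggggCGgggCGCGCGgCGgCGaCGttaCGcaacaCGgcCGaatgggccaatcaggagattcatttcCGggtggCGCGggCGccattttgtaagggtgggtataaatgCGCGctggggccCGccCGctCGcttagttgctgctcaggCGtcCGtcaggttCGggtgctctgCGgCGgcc

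At the Fcer1g promoter peak the libraries held 5.15, 6.04, 5.43 and 5.18 CPM in Idh2 R172K and 12.4, 13.4, 11.2 and 10.8 in WT (log2 fold change -1.15 ± 0.109 SE, edgeR adjusted p = 9.03e-12). At Itga2b they held 52.1, 45.4, 48.5 and 48.8 against 32.1, 29.6, 31.8 and 34.0 CPM (0.61), and at Csf3r 32.0, 24.7, 29.6 and 26.8 against 13.7, 13.0, 14.8 and 16 (1.00). Socs3 had a strong promoter peak that held 111, 110, 116 and 110 CPM in Idh2 R172K and 62.6, 64.2, 57.9 and 62.4 in WT (log2 fold change 0.85).

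The promoter-class peaks raised with the lowest p were named by Sema4b, Pgap4, Adamts9, Ndel1 and Por, and the Ndel1 one lay 11863 bp from that gene. Sema4b, a semaphorin gene, held 83.9, 72.5, 81.5 and 78.9 CPM in Idh2 R172K and 38.0, 36.7, 35.5 and 33.6 in WT (log2 fold change 1.14 ± 0.0647 SE, edgeR adjusted p = 2.17e-18), and its window has 28 CpG. This peak, chr7:80197447-80199033, lies close to the engineered Idh2 gene, whose peaks span chr7:80098545-80146377. Idh2 R140Q held 36.5 CPM at the Sema4b peak. Whether the gain there is local to the R172K allele was not tested. Log2 fold changes were 1.26 at Pgap4, 1.60 at Adamts9 and 1.47 at Ndel1. Por, the reductase that serves cytochrome P450 enzymes, had a narrow peak with 9.42, 9.16, 9.57 and 11 CPM against 1.97, 1.96, 2.23 and 1.68 (2.33). The lowered promoter-class peaks with the lowest p, at Lmln, Atf7ip, Col27a1 (-3.30), Bsn (-2.77) and Atg16l2 (-2.62), lay inside those genes.

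At 3 strong promoters the call itself turned with the scaling. The Srsf2 promoter held 176, 175, 186 and 197 CPM in Idh2 R172K and 161, 174, 155 and 171 in WT, and was raised by TMM (log2 fold change 0.16) and lowered by cyclic loess (-0.10). Hnrnpul1 and Mbd3, a subunit gene of the NuRD complex, each went from 0.17 to -0.09. In TMM-scaled CPM the 4 libraries of each genotype did not overlap at any of the 3, so the direction there was set by the scaling.

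Neighbouring peaks tended to change together. Where adjacent peaks under 500 bp apart were both called, 76.9% had the same direction, and 63.8% did at 5 to 10 kb, beside 50% to 53.5% from the raised and lowered totals in each band. The share did not fall further with distance: it was 66.3% at 10 to 50 kb, 70.1% at 50 to 200 kb and 73.0% beyond 200 kb. Cyclic loess gave 77.5%, 64.4%, 65.8%, 71.8% and 75.7% for the same bands, beside 50.4%, 50%, 50.1%, 53.5% and 60.1% from its totals. Pairs of raised peaks outnumbered pairs of lowered ones only in gaps over 50 kb by TMM, with 714 against 554 at 50 to 200 kb and 203 against 95 beyond 200 kb.

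Runs of consecutive tested peaks called in one direction were long on both sides. There were 160 runs of 8 or more lowered peaks and 55 of raised peaks, and 103 and 78 under cyclic loess. The longest run of all covered Zfp64 and Tshz2, zinc finger transcription factor genes, over 945 kb at chr2:169087220-170032172. All 47 peaks were lowered, with a median log2 fold change of -2.50 under TMM and -2.37 under cyclic loess. Summed over the run the Idh2 R172K libraries held 33.3, 43.1, 32.1 and 33.8 CPM and the WT libraries 149, 134, 154 and 133. Idh2 R172K thus kept 25.1% of the WT signal across the run, while Idh2 R140Q stood at 134 ± 10.3 CPM (SD, n = 4). The 500 kb on either side was less one-sided, with 13 of 43 peaks lowered before the run and 33 of 82 after it.

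Another stretch of lowered peaks covered Slc28a3, Ntrk2 and Agtpbp1 over 720 kb at chr13:58640185-59360495. Its 23 peaks summed to 18.4, 24.2, 21.6 and 21.9 CPM in Idh2 R172K and 72.1, 83.0, 72.4 and 75.2 in WT (median log2 fold change -1.97, and 20 of the 23 were also lowered under cyclic loess). One more run, also of 23 peaks, covered Pax8 and Cacna1b, a calcium channel gene, over 323 kb at chr2:24425559-24748439. It held 39.7, 42.2, 40.3 and 36.6 against 87.1, 86.5, 84.4 and 81.7 CPM. After this run the direction changed, with 23 of the next 57 peaks within 500 kb raised and 12 lowered.

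The longest run of raised peaks covered the Mrgpra cluster, receptor genes of sensory neurons, over 693 kb at chr7:47312252-48005406. Its 29 peaks summed to 182, 199, 182 and 198 CPM in Idh2 R172K and 57.8, 72.5, 72.1 and 59.8 in WT (median log2 fold change 1.69). Idh2 R140Q stood at 74.4 ± 15.7 CPM (SD, n = 4), and under cyclic loess the run extended to 39 peaks. A run of 15 raised peaks covered Naaladl2, Nlgn1 and Spata16 over 3020 kb, a stretch with few peaks. Its libraries held 52.3, 50, 52.8 and 63.6 CPM in Idh2 R172K and 17.3, 23.1, 25.8 and 27.1 in WT. Nlgn1 encodes a synaptic adhesion protein.

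**Figure D4:**
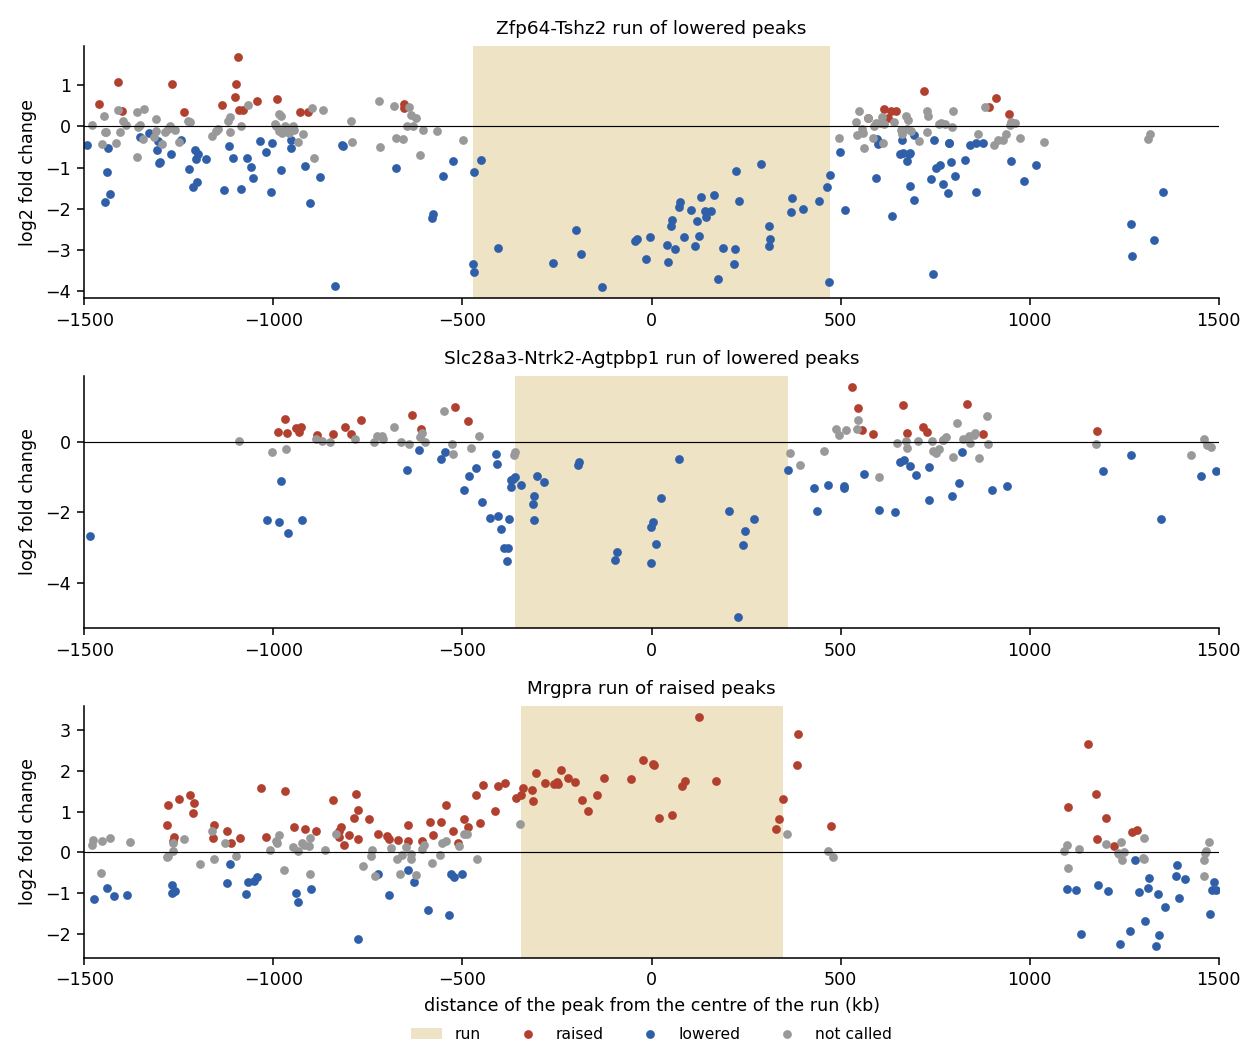
Log2 fold change of each tested peak (y axis) against its distance in kb from the centre of 3 runs (x axis), coloured by call; the shaded band is the run. All 47 peaks of the Zfp64 and Tshz2 run and all 23 of the Slc28a3, Ntrk2 and Agtpbp1 run lie below 0 and all 29 of the Mrgpra run above 0, with raised, lowered and uncalled peaks mixed further out.

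Genes with many peaks that moved one way were uncommon. Of 3742 genes with 10 or more tested peaks, 75 had over 70% of them lowered and 21 over 70% raised (50 and 40 under cyclic loess). Ntrk2 had all 16 lowered, Tshz2 44 of 45, Lrig3, a regulator of receptor tyrosine kinases, 16 of 17, and Gpc1, a heparan sulfate proteoglycan, 15 of 16. Sdk1, a cell adhesion gene, had 24 of 26 and Pax8 12 of 13. Summed over the 16 Gpc1 peaks, the libraries held 49.8, 45.8, 50.6 and 42.9 CPM in Idh2 R172K and 97.6, 93.8, 92.2 and 88.0 in WT. At Lrig3 they held 21.4, 27.2, 28.2 and 31.5 against 56.4, 64.4, 63.1 and 71.7 CPM.

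Adamts5, an aggrecan-cleaving protease gene, had all of its 11 peaks raised. They summed to 45.5, 40.7, 44.4 and 51.9 CPM in Idh2 R172K and 15.1, 17.2, 18.7 and 20.3 in WT. Rab27b, a vesicle transport GTPase of platelets, had 10 of 11 raised, with 99.9, 94.1, 95.6 and 119 against 57.8, 53.4, 54.1 and 63.5 CPM. Mdga2 had 14 of 16, the receptor phosphatase gene Ptprd 13 of 15, Hsfy2 9 of 11 and Arl5b 8 of 10.

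**Figure D5:**
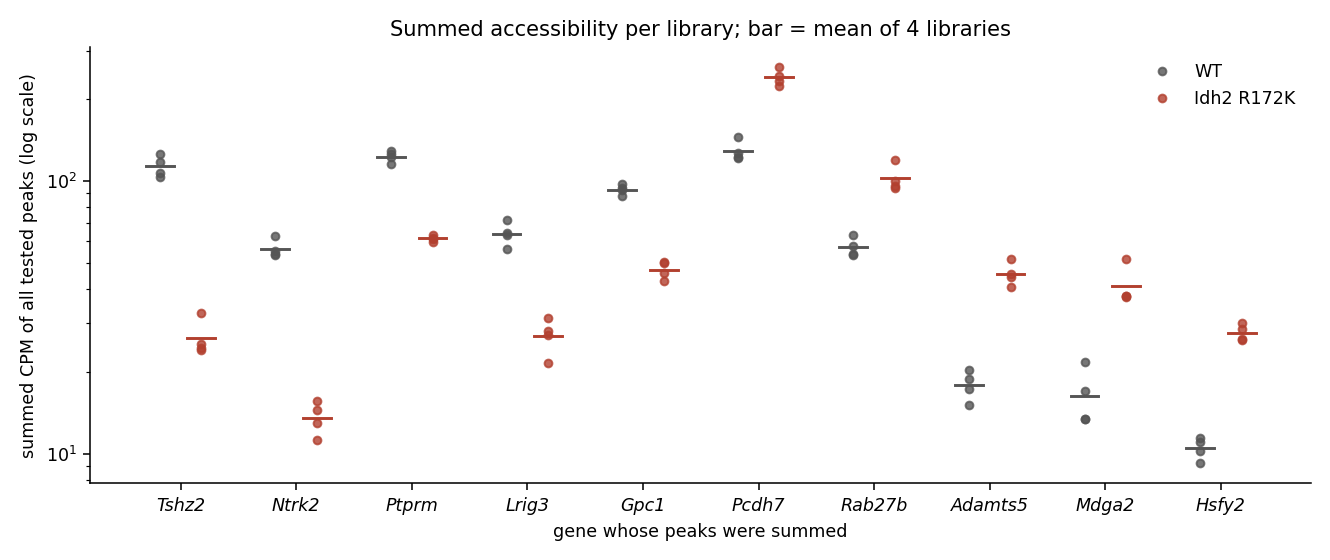
Summed CPM over all tested peaks of 10 genes (y axis, log scale) in the 4 WT (grey) and 4 Idh2 R172K libraries (red), with a bar at each mean. The Tshz2, Ntrk2, Ptprm, Lrig3 and Gpc1 sums are lower in every Idh2 R172K library and the Pcdh7, Rab27b, Adamts5, Mdga2 and Hsfy2 sums higher.

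Change in both directions within a gene was the common case. Of 10575 genes with 2 or more called peaks, 7139 (67.5%) held raised and lowered ones. Atp10a, whose strongest loss is given above, had 14 of 38 peaks raised and 13 lowered, with log2 fold changes from -3.81 to 1.16. Its summed level was 287 ± 8.21 CPM in Idh2 R172K and 292 ± 8 in WT (SD, n = 4 each), and the groups overlapped. Plpp3, a lipid phosphatase gene, had 12 raised and 14 lowered of 32, Arhgef10l 12 and 12 of 34, Phlpp1 10 and 12 of 29, and Sema4d 10 and 11 of 26.

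In windows of 1 Mb with 20 or more tested peaks (1719), 1703 held both directions. A majority of the peaks was lowered in 69 windows and raised in 36 (40 and 50 under cyclic loess). Beside the Tshz2 window, with 45 of 46 peaks lowered, the most lowered were at Cadm1 (18 of 22), Gpc6 (17 of 22) and Sdk1 (26 of 35). Among the most raised were those at Plxdc2 (15 of 20), at Pcdh7, a protocadherin gene (17 of 23), and at Ptpn5 and the Mrgpra cluster (46 of 68). The 30 peaks of Pcdh7 together held 243, 222, 233 and 261 CPM in Idh2 R172K and 121, 122, 126 and 145 in WT, and the 21 peaks of Cadm1 56.7, 64.0, 57.6 and 57.5 against 88.5, 93.6, 81.1 and 89.1.

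Gene lists were read by their counts beside the 25.1% raised and 27.9% lowered of all tested peaks, with no test of a list. Among genes whose products 2-hydroxyglutarate can inhibit, histone demethylases of the 2-oxoglutarate class had 53 of 155 peaks raised and 28 lowered (median log2 fold change 0.13, against 0.01 over all peaks), and 52 and 26 under cyclic loess. Kdm4b, a demethylase gene for histone H3 lysine 9, had 8 of 13 peaks raised and none lowered, and its leading peak held 16.3, 13.6, 15.5 and 17.4 CPM in Idh2 R172K and 8.04, 8.51, 7.56 and 8.86 in WT. The peak inside Kdm3b gained 1.33. Kdm7a went the other way with 9 of 13 lowered, and the Phf2 peak fell by 1.54 on the log2 scale. DNA methylation genes had 53 of 230 peaks raised and 72 lowered. Gadd45g, a stress gene tied to demethylation, had a lowered peak (-1.67) 155653 bp and a raised one (1.10) 103283 bp from it, and the Mbd2 peak fell by 1.17.

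For the enzymes around 2-oxoglutarate, 44 of 148 peaks were raised and 36 lowered, and 21 and 25 under all 5 scalings. Bcat1, the cytosolic branched-chain aminotransferase that uses 2-oxoglutarate, had 12 of 24 peaks lowered and none raised. Its leading peak chr6:145002119-145002968 held 6.00, 7.50, 6.32 and 6.25 CPM in Idh2 R172K and 16.7, 14.6, 14.6 and 15.5 in WT (log2 fold change -1.27). A peak near Mdh1, the cytosolic malate dehydrogenase gene, gained 1.22. Idh2 itself had 7 of its 8 peaks raised. The intronic one at chr7:80114288-80115707 held 89.7, 85.3, 88.8 and 87.4 CPM against 49.3, 53.8, 50 and 47.7, and stood higher than in Idh2 R140Q (log2 difference 0.76, edgeR adjusted p = 1.32e-14).

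Transcription factors of stem cells had 163 of 770 peaks raised and 252 lowered, 116 of the latter by 2-fold or more, and 186 and 228 under cyclic loess. Prdm16, needed for stem cell maintenance, had 28 of 41 lowered and 1 raised, and Etv6 35 of 70 and 5. Hlf had 14 of 25 lowered and 1 raised. Meis1, a HOX cofactor, leaned the other way with 24 of 64 raised and 9 lowered. The leading Gata2 peak, 27632 bp away, held 1.58, 1.56, 1.37 and 0.901 CPM in Idh2 R172K and 11.7, 11.1, 12.7 and 10.8 in WT (log2 fold change -3.09), while 4 of its 10 peaks were raised and 3 lowered. Gfi1b, a repressor of erythroid and megakaryocyte cells, had a raised peak with 55.0, 47.6, 53.3 and 62.8 against 28.6, 24.8, 25.6 and 29.0 CPM (1.02). The leading lowered peak of Hmga2 had a log2 fold change of -2.79, and the leading raised peak of Runx1, 321720 bp away, 1.20. Both genes changed both ways. Hmga2 had 13 of 47 peaks raised and 16 lowered (19 and 14 under cyclic loess), and Runx1 18 of 99 raised and 29 lowered.

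Surface proteins of LSK and stem cells had 88 of 372 peaks raised and 110 lowered. Cd34 had 11 of 20 raised and 1 lowered, and Flt3, a receptor of early lymphoid and myeloid progenitors, 7 of 18 lowered and 1 raised. A peak 6483 bp from Cd48 held 14.8, 12.9, 13.3 and 14.5 CPM in Idh2 R172K and 4.02, 2.91, 3.68 and 3.73 in WT (log2 fold change 1.96). Distant peaks near Angpt1 (-2.85) and Cxcr4 (-1.72) were lowered.

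Among signalling genes, cytokine receptors and JAK-STAT genes had 83 of 298 peaks raised (27.9%) and 84 lowered (28.2%), shares near those of all peaks (25.1% and 27.9%), with a lowered peak near Il6st (-2.48), the shared receptor chain gp130, beside the raised Socs3 and Csf3r promoters. Notch and Wnt genes had 112 of 486 raised and 167 lowered. Tcf7l2 had 28 of 42 lowered and Lef1 15 of 25, with 3 and 0 raised, and the leading Lef1 peak fell by 1.72. Maml2 and Rbpj, which act in Notch transcription, had raised peaks (0.66 and 0.76). TGF-beta, BMP and activin genes had 108 of 473 raised and 139 lowered. Within Acvr1, an activin receptor gene, one peak fell by 2.90 and another nearby gained 1.64. The Id1 promoter gained 0.92, and a peak near Tgfbr2 fell by 2.19.

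Among regulators of chromatin, CTCF and cohesin genes had the lowest share of calls among the lists, with 37 of 160 peaks raised and 28 lowered. Polycomb and trithorax genes had 68 of 283 and 70. Jarid2 had 35 of 79 lowered and 11 raised, with a leading peak of 3.35, 1.95, 3.11 and 3.60 CPM in Idh2 R172K and 15.9, 14.7, 16 and 12 in WT (-2.22), and Cbx7 had 7 of 13 raised and 1 lowered. AP-1 and stress genes had 71 of 297 raised and 99 lowered. Bach1, a heme-sensing repressor, had 12 of 22 lowered and 1 raised, and its leading peak fell by 2.35. Regulators of small GTPases had 177 of 892 raised and 291 lowered, and matrix genes with their proteases 68 of 258 and 84 (73 and 73 under cyclic loess). The leading peak of the latter lay inside Col5a1, a collagen gene (-3.61).

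Of the lists for mature lineages, erythroid and megakaryocyte genes had 46 of 190 raised and 71 lowered. The 4 of 5 megakaryocyte markers with a peak had 6 of 12 raised and none lowered. Other genes of the list went both ways, with Thbs1 at 6 of 31 raised and 15 lowered and Selp at 3 of 7 raised and 0 lowered. Myeloid and mast cell genes had 41 of 204 raised and 68 lowered. Cpa3, a mast cell protease gene, had a raised peak 26243 bp away with 4.04, 3.60, 3.88 and 5.01 CPM in Idh2 R172K and 0.341, 0.573, 0.657 and 0.492 in WT (3.04), and Hdc, the histidine decarboxylase of mast cells and basophils, a lowered one (-1.06). Lymphoid genes had 39 of 197 raised and 59 lowered, and 55 and 55 under cyclic loess. The B cell markers, whose summed level is given above, had 21 of 47 peaks lowered and 2 raised. The B cell factor Ebf1 had 16 of 28 lowered and none raised, and the Pax5 intron peak chr4:44624659-44625285 held 0.308, 0.292, 0.370 and 0.225 against 3.38, 3.07, 2.96 and 2.75 CPM (-3.28). Pax5 had 4 of 15 peaks lowered and 2 raised. Its strongest peak, of the promoter class, held 22.8 ± 2.45 CPM in Idh2 R172K and 25.6 ± 1.8 in WT (SD, log2 fold change -0.17). Dntt, which adds bases at immune receptor joints, had both a lowered (-1.82) and a raised peak (0.57). Stroma and endothelium genes had 65 of 279 raised and 89 lowered.

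Of the other genes engineered in the series or used to drive Cre, Idh1 had 2 of 2 peaks raised by TMM and 1 by cyclic loess. Its intronic peak gained 0.25 on the log2 scale by TMM and was not called by cyclic loess (0.06). The other Idh1 peak, 11965 bp away, gained 1.85 from a WT mean of 0.263 CPM. Tet2 had 9 of 30 peaks raised and 6 lowered. Its main promoter peak held 53.8, 45.7, 54.2 and 51.9 CPM in Idh2 R172K and 46.6, 52.8, 46.5 and 54.1 in WT, and the groups overlapped. Vav1 had 2 of 12 raised and 3 lowered, with 34.4, 32.6, 36.3 and 38.0 against 40.7, 34.3, 38.2 and 38.0 CPM at its start site.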

How the data were processed

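ATAC-seq fragments were counted in one common set of peaks for 20 libraries of 5 genotypes, each from 2 pooled mice. The authors deposited raw counts per peak, whole numbers with no normalization. The table holds 125343 peaks with a class and a distance to a start site, which the authors deposited in bp. The submitters' processing notes list Trim Galore, BWA, Picard, SAMtools, MACS2, featureCounts and mm10; settings, versions and order: not given in the sources used here. Columns headed IDH1_140Q were matched to the Idh2 R140Q samples by the labels. Whether replicates are separate cultures or preparations beyond the pools is not stated, so p-values measure the spread between these libraries.

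Counts were fitted over all 20 libraries in edgeR 4.0.16 (quasi-likelihood test, TMM scaling, R 4.3.3) after a low-count filter that removed 1435 peaks and left 123908. P-values were adjusted by Benjamini-Hochberg over all of these, with a threshold of 0.05, and glmTreat tested changes beyond 1.5-fold. Alternatives were cyclic loess (limma 3.58.1, added count 0.5), library size, RLE and quantile scaling, other filters, the 8 libraries alone, DESeq2 1.42.0, a replicate block, the Xist set and each library left out. The common biological coefficient of variation was 7.73%. On simulated data for this comparison (123908 peaks) the test recovered 2% of peaks changed 1.25-fold, 44% at 1.5-fold, 88% at 2-fold and 100% at 4-fold, with 8 false calls of 125. Only 50 peaks were changed at each fold there, whereas 53.0% of peaks were called in the data. The adjusted threshold was thus stricter in the simulation, and its shares do not give the sensitivity of the real comparison. Shares per library were compared with an exact permutation test (scipy 1.17.1), whose smallest p is 0.0286. Python 3.11.15, pandas 2.3.3, numpy 2.4.6, statsmodels 0.14.6 and matplotlib 3.10.9 were used. No 2 libraries of a group agreed within counting noise.

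The design assumed gene symbols in the deposited annotation. It holds Ensembl identifiers, so each peak took the nearest of 21900 protein-coding RefSeq genes by GRCm38.p6 coordinates (17794 genes named), and 56.3% of peak centres lay inside the named gene. A name therefore marks a neighbour, not a target. Promoter sequences are RefSeq windows of GRCm38.p6. Named peaks had every Idh2 R172K library beyond every WT library and the same call by TMM, cyclic loess and library size. From these, those of lowest p were taken per fold band, among promoters, per gene list and among opened and closed peaks, beside the genes, windows and runs with the highest share in one direction, the genes changed most in both, and peaks whose call turned under cyclic loess. Single genes given with counts from a list were picked after their values were seen. The members, lists and comparisons were chosen with earlier results of these data known. Some peaks, runs and windows that met these rules are not reported here.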

Additional observations from a re-analysis of the deposited data

Results flagged for a closer look

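Among 286 groups of 4 libraries, 14 (4.9%) held one library that stood far from the other 3. Chance gives about 1 in 20 such groups. Idh2 R172K replicate 2, the shallowest library, was the high one for the summed level of the Zfp64 and Tshz2 run (43.1 CPM, others 32.1 to 33.8), of the Tshz2 peaks (32.8, others 24.0 to 25.2) and of the Cadm1 peaks (64.0, others 56.7 to 57.6). Idh2 R172K replicate 4 was high for the Mdga2 sum (51.9 CPM, others 37.6 to 37.9), the Bach1 peak (2.31, others 1.66 to 1.77) and the share of counts in the strongest decile of peaks (60.7%, others 59.4% to 59.6%). The same library was low at the Notch1 peak (29.6 CPM, others 33.1 to 33.8).

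Idh2 R172K replicate 3 was low at the Mbd2 peak (5.95 CPM, others 6.62 to 6.69), high at the Socs3 promoter (116 CPM, others 110 to 111) and low for the share of counts over 50 kb from a start site (12.5%, others 12.6%). Idh2 R172K replicate 1 was high at the Satb1 peak (7.42 CPM, others 5.07 to 5.25). In WT, replicate 4 was high for the Gpc6 sum (81.8 CPM, others 70.8 to 72.6), replicate 2 low at the Dhx15 peak (20.9, others 23.6 to 24.0) and replicate 3 low at the Maml2 peak (21.8, others 24.6 to 25).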

How the results depend on the processing

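The count of called peaks stayed within 1.5 times of 65673 under every alternative: 68461 with the replicate block, 66716 with the Xist set, 65180 from the 8 libraries alone, 55390 by DESeq2, 65829 with no filter and 53222 with a mean of at least 1 CPM. Leaving out each library in turn gave 58386 to 63873 calls, 27466 to 30023 raised, 30920 to 33850 lowered and 45.8% to 47.1% raised, with 5278 to 6038 promoter-class peaks raised and 2121 to 2298 lowered, and 3994 to 5224 raised and 13481 to 15568 lowered beyond 1.5-fold. Replicate numbers were shared by the groups, but deviations of same-numbered libraries correlated at 0.12, 0.114, -0.06 and 0.152, so the numbers do not pair all samples.

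Raised promoter-class peaks fell from 6203 to 3683 with cyclic loess and 3544 with quantile scaling. Peaks raised beyond 1.5-fold went from 4863 to 2961 with a mean of at least 1 CPM, which tests fewer peaks, and lowered ones from 15653 to 10319 with quantile scaling. Genes over 70% lowered went from 75 to 29 (quantile), and those over 70% raised from 21 to 40 (cyclic loess), 9 (library size) and 48 (quantile). Windows mostly lowered went from 69 to 40 (cyclic loess), 117 (library size), 22 (quantile) and 140 (500 kb windows), and those mostly raised from 36 to 14 (library size) and 64 (quantile). Of 1980 values for 110 named peaks under 18 settings, 1962 kept direction and call, 12 lost the call and 6 reversed: Hnrnpul1 with cyclic loess (-0.09) and quantile scaling (-0.00), Mbd3 (-0.09 and -0.01) and Srsf2 (-0.10 and -0.03). Most of these peaks were chosen for the same call by TMM, cyclic loess and library size, and these 3 because they turn, so the tally is no measure of stability under those scalings. Apart from the fewer peaks tested, the cause was not tested. In simulated data, 2% of changes of 1.25-fold and 44% of those of 1.5-fold were recovered. Only 50 peaks were changed at each fold there, so these shares do not give the sensitivity of the real comparison.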
